A study of Mus musculus with 2 samples.

Results

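Cluster C05 is 1 of the clusters that the authors' deposited annotation places in the class MF (macrophages) of a mouse tumor study, and its working name is Trem2 Cx3cr1 macrophages. Its cells were taken by the deposited cluster label alone: 889 of the 11456 cells in the series, of which 527 came from the S303/7A library and 362 from the WT library. The S303/7A library was made from tumors engrafted in mice in which serines of HSF1 (heat shock factor 1, which drives chaperone transcription in stressed cells) are replaced by alanine, and the WT library from tumors engrafted in wild-type mice. The labels and design text used here state no tumor line, strain, age or treatment. Live CD45-positive (leukocyte) and CD45-negative cells were sorted and recombined at 5 parts to 1 before droplet capture with a 3′ tag kit. The design text speaks of pooling tumors from 4 mice, so single animals cannot be told apart, each genotype is 1 library, and every difference below is given as values without a test.

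TREM2 is a lipid-sensing receptor of macrophages and microglia, APOE is the apolipoprotein that carries lipid between cells and binds TREM2, and CX3CR1 is the receptor for the chemokine fractalkine. Macrophages that carry these genes, often with the folate receptor gene Folr2, are described in tumors and in resident tissue populations. T cells are recognised by the CD3 chains and the constant regions of the T cell receptor (Trac, Trbc1, Trbc2), and cytotoxic T cells also carry the CD8 chains and granzymes. A droplet that captures more than 1 cell gives a barcode with the RNA of each of them.

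The label was checked against the cells first, and it did not hold as a description of what sets C05 apart. Levels are given as CP10K, the mean over cells of UMIs (captured RNA molecules) per 10000 UMIs of the cell. The macrophage markers were present: Trem2 had 3.11 CP10K in the S303/7A library and 1.5 CP10K in the WT library, and Cx3cr1 had 4.23 and 2.19 CP10K in S303/7A and WT. In cluster C03, another MF cluster, the levels were higher, with Trem2 at 5.30 CP10K in S303/7A and 2.77 CP10K in WT and Cx3cr1 at 6.76 CP10K in S303/7A and 4.82 CP10K in WT. Apoe, Folr2, Fcrls (a microglial Fc receptor-like gene) and Cbr2 (a carbonyl reductase of resident macrophages) were likewise lower in C05 than in C03 in both libraries. In contrast, the marker Nrgn (neurogranin, a calmodulin-binding protein) had 1.64 CP10K in S303/7A and 1.12 CP10K in WT in C05, at most 0.0383 CP10K in C02, C03 and C13 in either library, and 0.417 CP10K in S303/7A and 0.215 CP10K in WT in C09. In the CD8 T cell cluster C06 it had 4.05 CP10K in S303/7A and 1.89 CP10K in WT. The genes that stood highest in C05 over the other MF clusters were T cell genes, so the cells are called cluster C05 from here on, and no other cell type name is given to them.

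**Figure D1:**
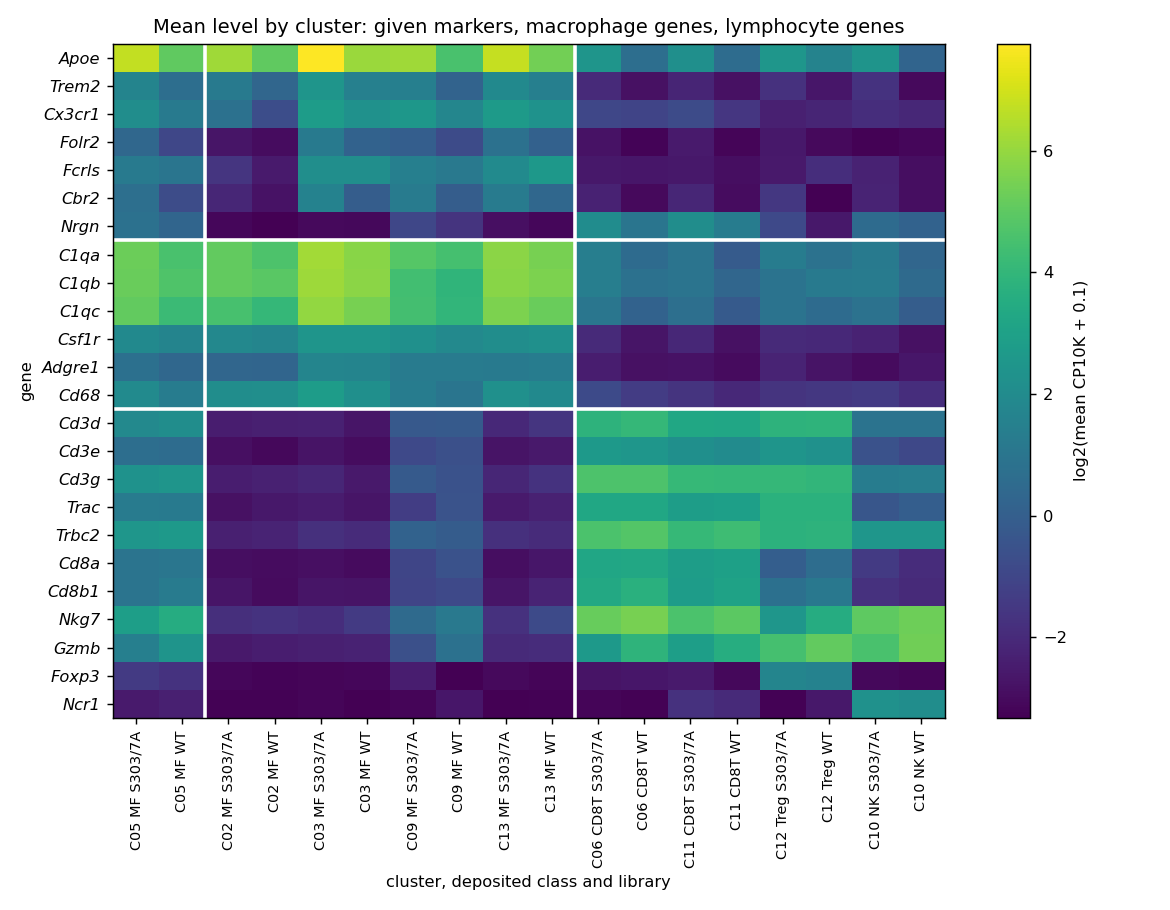
Mean level, as log2 of CP10K plus 0.1, of the 7 given markers, 6 macrophage genes and 11 lymphocyte genes (rows, in blocks) in each cluster and library (columns, with C05 at the left). C05 is bright in rows of all 3 blocks, and its Cd3g and C1qa lie between their levels in C03 and C06. Foxp3 and Ncr1 of the lymphocyte block were found, before thinning, in a larger share of C05 than of C06 cells.

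Nearly every C05 cell held RNA of both kinds. A UMI of Cd3d, Cd3e or Cd3g together with a UMI of C1qa, C1qb or C1qc (the chains of complement C1q, made by macrophages) was found in 507 of 527 C05 cells of S303/7A, or 96.2% (exact binomial 95% interval 94.2 to 97.7%), and in 314 of 362 of WT, or 86.7% (82.8 to 90.1%). Single UMIs of C1q were common among T cells as well: 92.1% of C06 cells in S303/7A and 63.0% in WT held both kinds by that measure, and C1q is a gene that CD8 T cells should lack. A stricter count was therefore used, of cells with at least 3 UMIs of 10 T cell genes and at least 10 UMIs of 7 macrophage genes. By that count 98.1% of C05 cells in S303/7A (96.5 to 99.1%) and 81.5% in WT (77.1 to 85.4%) held both. In the other MF clusters the shares were 3.42 to 17.7% in S303/7A and 0.285 to 7.55% in WT, and in C06 they were 14.3% in S303/7A and 3.62% in WT. The cut-offs are raw UMIs, and depth differed between clusters. Median UMIs in S303/7A and WT were 19016 and 9049 in C05, 2545 and 1386 in C09, and 7035 and 4577 in C06. The clusters were also cut from these same genes, so the shares describe C05 and test nothing.

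**Figure D2:**
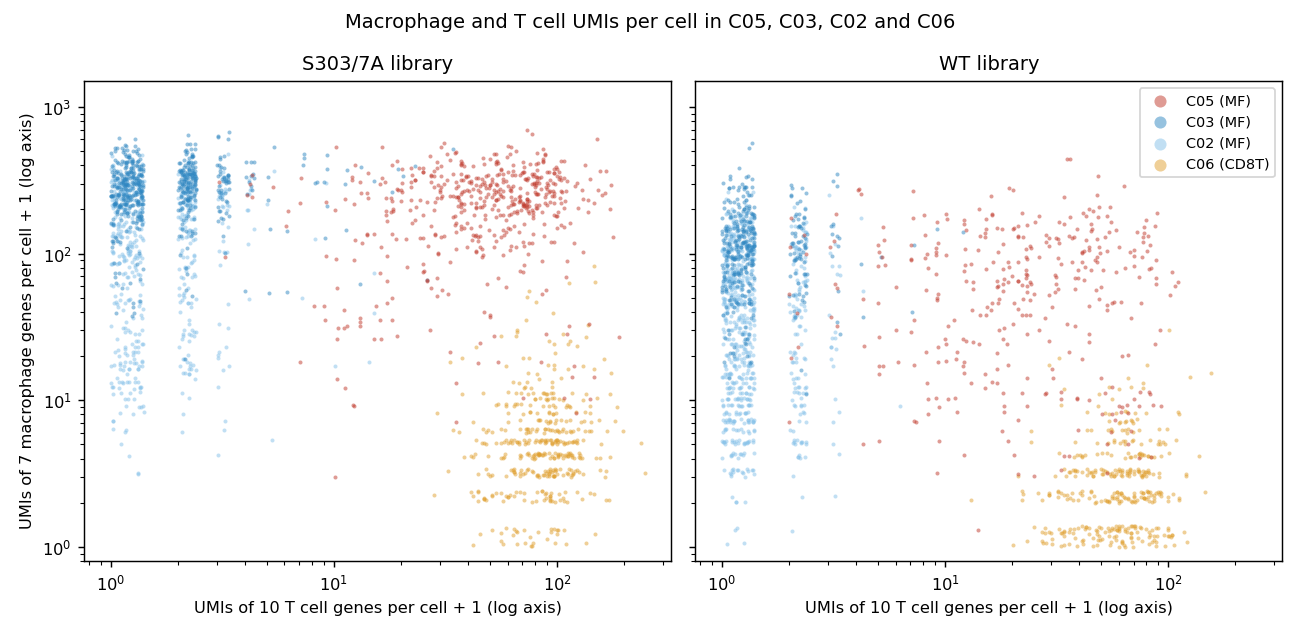
Each point is 1 cell, with the UMIs of 10 T cell genes plus 1 on the x axis and the UMIs of 7 macrophage genes plus 1 on the y axis, both log axes, a small random offset to separate ties, and the S303/7A library at the left. C05 (red) lies to the right of C03 and C02 (blue) at like macrophage UMIs and above C06 (orange): its medians are 49 T cell and 232 macrophage UMIs in S303/7A, and 22 and 62 in WT.

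Every cell was then thinned to 1000 UMIs, so that shares could be compared at 1 depth. Cd3g, a chain of the T cell receptor complex, was found in 35.7% of C05 cells in S303/7A and 36.2% in WT, in 86.8% of C06 cells in S303/7A and 90.7% in WT, and in under 1% of the cells of C02 and of C03 in either library (0.951 and 0.917% in S303/7A, 0.712 and 0.535% in WT). In the other MF clusters it was found in 4.10% of C09 cells in S303/7A and 6.39% in WT, and in 1.45% of C13 cells in S303/7A and 1.26% in WT. Before thinning, Cd3g was found in 92.4% of C05 cells in S303/7A and 84.5% in WT, against 12.7 and 3.48% of C03 cells in S303/7A and WT. Trem2 was found in 25.4% of the thinned C05 cells in S303/7A and 15.5% in WT, against 39.1 and 20.6% in C03 in S303/7A and WT and 2.04 and 0.517% in C06. No C05, C02, C03, C13 or C06 cell was lost by thinning, while 14 C09 cells in S303/7A and 120 in WT were too shallow. The C05 share with Cd3g lay between those of the other MF clusters and of C06. The share with Trem2 was below that of C03 but above those of C02 (16.9% in S303/7A and 11.7% in WT) and C09 (21.0% in S303/7A and 9.40% in WT), and in C13 it was 25.1% in S303/7A and 20.8% in WT.

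C05 barcodes were also deep. The median was 19016 UMIs and 3860 genes per cell in S303/7A and 9049 UMIs and 2544.5 genes in WT. C03 had medians of 13123 UMIs in S303/7A and 6554.5 in WT, and C06 had 7035 in S303/7A and 4577 in WT. The cycling cluster C13 was as deep as C05, with medians of 18801 UMIs in S303/7A and 9330 in WT. Depth alone did not separate C05 from C13, and the cause of the depth of C05 was not tested. Scrublet, which scores each barcode by its likeness to sums of random pairs of cells, set an automatic threshold that marked 0.0833% of S303/7A cells and 0.827% of WT cells, so cells were instead ranked by score and the top ones taken at an expected rate of 3.84% in S303/7A and 5.32% in WT. These top-scoring cells made up 137 of 527 C05 cells in S303/7A, or 26.0%, and 187 of 362 in WT, or 51.7%, and 0.535 to 3.11% of the cells of each other MF cluster in either library. Only 215 cells were marked in all in S303/7A and 361 in WT, so the highest share that C05 could reach was lower in S303/7A. The C05 shares are therefore not comparable between libraries, and leaving these cells out removes unlike parts of C05 in each. C05 itself was 10.97% of all cells in S303/7A and 5.44% in WT. From expression alone a barcode that held a macrophage and a T cell and a single cell with both kinds of RNA cannot be told apart, and every comparison below is of these barcodes.

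**Figure D3:**
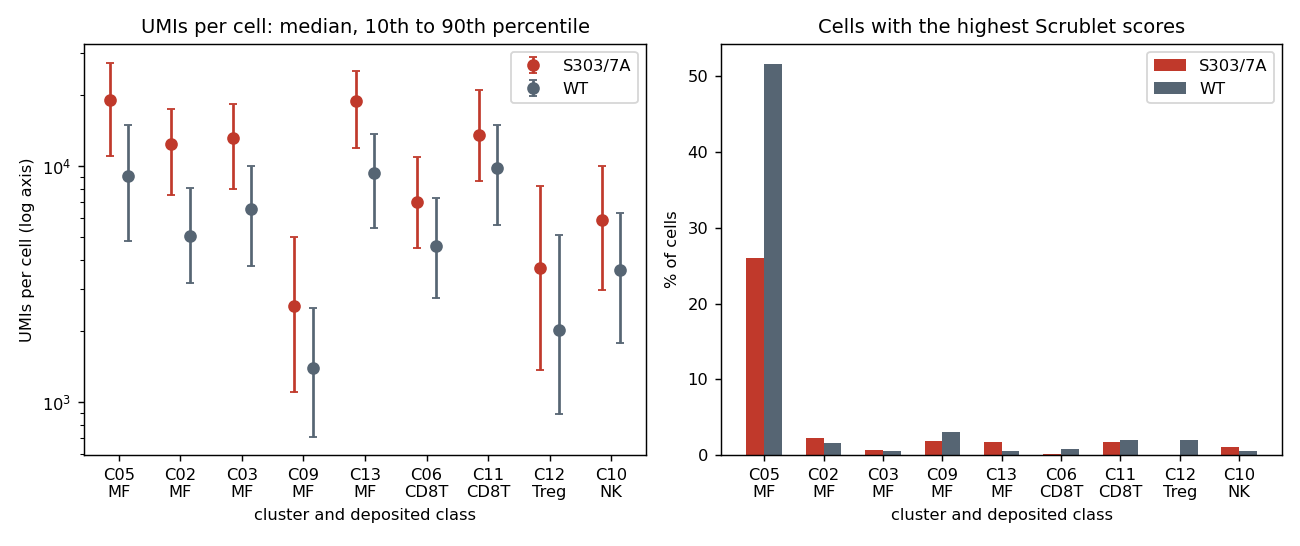
Left, UMIs per cell (log axis) by cluster as the median with bars from the 10th to the 90th percentile. Right, percent of cells with the highest Scrublet scores at the expected doublet rate of the library, with 215 cells marked in all in S303/7A and 361 in WT. Red is S303/7A and grey is WT. C05 stands at 26.0 and 51.7% while each other cluster shown lies at or below 3.11%.

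UMIs of CD8 T cell, regulatory T cell and NK cell genes were all found among C05 cells, which are deeper than those of C06 (median depths 7035 UMIs in S303/7A and 4577 in WT). A UMI of Cd8a or Cd8b1 was found in 74.0% of C05 cells in S303/7A (70.0 to 77.7%) and 65.5% in WT (60.3 to 70.4%). Foxp3, the transcription factor of regulatory T cells, was found in 20.7% in S303/7A (17.3 to 24.4%) and 10.8% in WT (7.77 to 14.4%), against 61.8% of cells in the regulatory T cell cluster C12 in S303/7A and 43.9% in WT (median depths 3702 and 2022 UMIs), and 2.27 and 1.29% in C06 in S303/7A and WT. Thinned to 1000 UMIs, Foxp3 was found in 1.90% of C05 cells in S303/7A (0.914 to 3.46%) and 1.38% in WT (0.450 to 3.19%), against 0.680% of C06 cells in S303/7A (0.141 to 1.98%) and 0.517% in WT (0.0626 to 1.85%), and these intervals overlap. Ncr1 or Klrb1c, receptors of natural killer (NK) cells, were found in 8.92% of C05 cells in S303/7A and 11.6% in WT, against 93.8 and 92.2% in the NK cluster C10 (median depths 5864.5 and 3621 UMIs) and 1.81 and 1.55% in C06 in S303/7A and WT. After thinning, Ncr1 was found in 1.52% of C05 cells in S303/7A (0.658 to 2.97%) and 0.552% in WT (0.0670 to 1.98%). In C06 it was found in 0% in S303/7A (0 to 0.833%) and 0% in WT (0 to 0.949%), and these intervals also overlap. Most C05 cells held Cd8 without Foxp3 or NK receptor UMIs (332 in S303/7A, 222 in WT), while 64 held Foxp3 alone in S303/7A and 30 in WT, and 20 held NK receptor UMIs alone in S303/7A and 32 in WT. Cd8 and Foxp3 UMIs met in 39 cells in S303/7A and 7 in WT. These gene combinations were chosen after the values had been seen, and the median depths differ between libraries, so the shares are a description.

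Within C05 the balance of the 2 kinds of RNA varied from cell to cell. The 10 T cell genes summed to a median of 26.1 per 10000 UMIs of the cell in S303/7A (10th to 90th percentile 10.7 to 50.6) and 27.4 in WT (7.33 to 56.4). The 7 macrophage genes summed to a median of 121 per 10000 in S303/7A (45.3 to 193) and 70.6 in WT (9.10 to 151). Spearman's rho between the 2 sums over cells was -0.12 in S303/7A (527 cells) and -0.36 in WT (362 cells), as a description, since the shares come from the same barcodes and total. In the 175 S303/7A cells with the highest T cell share, the macrophage genes had a median of 113 per 10000 and Apoe 81.8 per 10000, against 129 and 95.7 per 10000 in the 176 S303/7A cells with the lowest. In WT the same medians were 52.4 and 12.8 per 10000 in the 120 cells with the highest T cell share and 101 and 33.01 per 10000 in the 121 with the lowest. Top Scrublet scores were held in S303/7A by 30.3% of the cells with the highest T cell share. The shares were 22.2% in the middle group and 25.6% in the lowest, so they differed little there. In WT they were 77.5% in the highest group, 42.1% in the middle and 35.5% in the lowest.

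Against the pooled cells of the other MF clusters, C05 was marked by lymphocyte genes above, and most of the MHC class II genes lay below. Of 4978 genes measured in this comparison (mean of the groups at least 0.2 CP10K), 157, or 3.15%, were at least 1.5-fold higher in C05 in both libraries, and 58, or 1.17%, were at least 1.5-fold lower in both. With 1 CP10K added in place of 0.1, 56 were higher and 10 lower. Values are log2 ratios of C05 over the pooled cells of C02, C03, C09 and C13 with 0.1 CP10K added, and the clusters were cut from these same genes, so they describe the cluster and test nothing. All 10 genes of the T cell list were higher in both libraries, with medians of 3.57 in S303/7A and 3.22 in WT. Genes were ranked by the smaller of their ratios in the 2 libraries, and Cd3g came first, at 4.03 in S303/7A and 4.10 in WT. Trbc2 followed with 3.92 in S303/7A and 4.01 in WT, and Nkg7, a granule protein of cytotoxic cells, with 4.06 in S303/7A and 3.87 in WT. The rest of the 15 highest were Cd3d, Ptprcap, Cd2, Cd8b1, Gzmb, Ltb, Trbc1, Sh2d2a, Trac, Klrd1, Nrgn and Cd8a, all between 2.94 and 3.77. Trbc1 and Trbc2 are near-identical copies, so their separate values are uncertain.

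For Cd3g and C1qa, levels in C05 lay between those of C03 and C06. Cd3g had 4.84 CP10K in S303/7A and 5.45 CP10K in WT in C05, 0.126 CP10K in S303/7A and 0.0710 CP10K in WT in C03, and 25.4 CP10K in each library in C06. C1qa had 38.3 CP10K in S303/7A and 23.5 CP10K in WT in C05, 73.4 and 55.6 CP10K in S303/7A and WT in C03, and 2.54 and 1.34 CP10K in S303/7A and WT in C06. Over 69 genes that were at least 8-fold higher in the CD8T clusters than in C02, C03 and C13 in both libraries, the median C05 level was 0.274 of that in C06 in S303/7A and 0.288 in WT. Over 109 genes 8-fold higher in the macrophage clusters, the median C05 level was 0.603 of that in C03 in S303/7A and 0.555 in WT. These lymphocyte-side and macrophage-side genes were picked without C05 cells, but after C05 had been examined. They were picked by their levels in C02, C03 and C13, and those clusters are also in the pooled comparison cells. Lymphocyte-side genes are low there, so they reach the level set for measured genes mainly through C05. The counts against the pooled cells were thus largely set by the choice and test nothing. All 62 lymphocyte-side genes measured were higher in C05 in both libraries, and 33 of 109 macrophage-side genes were lower and 0 higher.

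The genes farthest below the other MF clusters were of mixed kinds. Thbs1 (thrombospondin, an adhesive matrix protein) had a log2 ratio of -0.92 in S303/7A and -0.98 in WT, and Ly6i, a Ly6 family surface gene, -0.90 in S303/7A and -0.97 in WT. Il1b, the inflammatory cytokine interleukin-1 beta, had -0.86 in S303/7A and -0.95 in WT, and Tgfbi, a matrix protein induced by TGF-beta, -0.83 in S303/7A and -0.85 in WT. The others of the 10 lowest were Sirpb1c, Mcemp1, Gatm, H2-DMb1, Pid1 and Clec4a3. By list, 2 of 15 measured monocyte genes, 4 of 13 cathepsin-list genes, 4 of 19 immediate early genes and 0 of 22 MHC class I genes were lower in both libraries. Of 9 measured genes for MHC class II presentation, 6 were lower in both libraries, among them Cd74 (the invariant chain), at -0.65 in S303/7A and -0.62 in WT, and H2-Ab1, at -0.77 in S303/7A and -0.61 in WT. The class II list summed to 242 CP10K in S303/7A and 246 CP10K in WT in C05. In S303/7A and WT it summed to 618 and 529 CP10K in C02 and 302 and 317 in C03. The sums were 178 and 231 CP10K in C09 and 286 and 211 in C13. C05 thus lay above C09 in both libraries and above C13 in WT. The resident macrophage list (16 measured) had no member past 1.5-fold in both libraries, with medians of -0.20 in S303/7A and -0.24 in WT. Of the 7 given markers, 1, Nrgn, was higher in both libraries and none was lower, and the median over all measured genes was -0.01 in each library.

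Of 21 measured proliferation genes, 2 were at least 1.5-fold higher in C05 than in the other MF clusters in both libraries. The median was 0.23 in S303/7A and 0.74 in WT. Hmgb2, a chromatin protein of dividing cells, was 1 of them, at 0.70 in S303/7A and 1.09 in WT. Top2a, the topoisomerase that separates chromosomes, had 0.51 in S303/7A and 1.06 in WT. The pooled comparison cells include the cycling cluster C13, which held 275 of them in S303/7A and 159 in WT. The summed level of the list was 25.2 CP10K in S303/7A and 29.8 CP10K in WT in C05, 64.9 and 58.5 CP10K in S303/7A and WT in C13, and between 8.04 and 10.3 CP10K in C02 and C03. Markers of neutrophils, dendritic cells and B cells were low in C05. Their summed levels were 0.404 CP10K in S303/7A and 0.348 CP10K in WT for 7 neutrophil genes, 0.417 CP10K in S303/7A and 0.323 CP10K in WT for 11 dendritic cell genes, and 1.56 CP10K in S303/7A and 1.48 CP10K in WT for 8 B cell genes, with 2 of the B cell and 3 of the dendritic cell genes at 0 in WT. The summed levels of 14 tumor and stroma genes were higher, at 13.2 CP10K in S303/7A and 17.7 CP10K in WT in C05 against 7.10 and 10.04 CP10K in S303/7A and WT in C03 and 19.3 and 22.3 CP10K in C02. In C06 they summed to 21.8 CP10K in S303/7A and 25.3 CP10K in WT. S100a6 and Fn1 of this list are also on the monocyte list, and Thy1 is also listed for T cell subsets, so the sum is not particular to tumor or stroma cells. The collagen gene Col1a1 was found in 4.55% of C05 cells in S303/7A and 2.21% in WT. NK genes summed to 13.9 CP10K in S303/7A and 25.0 CP10K in WT, and monocyte genes to 28.0 CP10K in S303/7A and 62.0 CP10K in WT.

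C05 made up a larger share of macrophages in the S303/7A library by the deposited labels. It was 527 of 2082 MF cells in S303/7A, or 25.3% (23.5 to 27.2%), and 362 of 1983 in WT, or 18.3% (16.6 to 20.0%), a ratio of 1.39 (1.21 to 1.59, counting error only). Of cells in CD45-positive classes it was 14.1% in S303/7A and 8.70% in WT. The ratio turned round among cells of 5000 to 20000 UMIs, where C05 was 20.5% of MF cells in S303/7A and 28.5% in WT (ratio 0.720, 0.613 to 0.846). It was 2.05 without the highest Scrublet scores (20.3% in S303/7A, 9.89% in WT), a filter that removed 137 C05 cells in S303/7A and 187 in WT. The window of 5000 to 20000 UMIs kept 307 of the 527 C05 cells in S303/7A and 311 of the 362 in WT. It kept no C09 cell of WT, where the deepest had 3949 UMIs. Median UMIs per cell were higher in S303/7A in every MF cluster, by 2.10 times in C05. Under each other denominator or cell filter tried the ratio stayed above 1, between 1.24 and 2.05, and the cause of the reversal was not tested.

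Between the libraries, C05 cells of S303/7A had more of the resident macrophage and lipid genes and less of the interferon, monocyte and cytotoxic genes. Of 5007 genes measured in C05 (average of the libraries at least 0.2 CP10K), 131, or 2.62%, were at least 1.5-fold higher in S303/7A and 108, or 2.16%, at least 1.5-fold lower, and the median log2 ratio was -0.01. With 1 CP10K added in place of 0.1, 24 were higher and 24 lower. The log2 ratios are of S303/7A over WT after adding 0.1 CP10K to each, which shrinks them for low genes, and intervals are exact 95% intervals of the ratio of summed UMIs, which cover counting error only. With 1 library each, genotype, the pool of animals and the library cannot be told apart. Where the other MF clusters (mean of C02, C03, C09 and C13) and the CD8T clusters (mean of C06 and C11) are set beside C05, they come from the same libraries.

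Of the 7 given markers, all measured, 5 were at least 1.5-fold higher in S303/7A and none lower, with a median log2 ratio of 1.00 in C05 and 0.78 in the other MF clusters. Apoe had 106 CP10K in S303/7A and 33.5 CP10K in WT, a UMI ratio of 3.12 (3.06 to 3.18). The Apoe log2 ratio was 1.66 in C05, 1.43 in the other MF clusters and 1.70 in the CD8T clusters, where Apoe lay at 5.46 CP10K in S303/7A and 1.52 CP10K in WT in C06. Trem2 had 3.11 CP10K in S303/7A and 1.5 CP10K in WT, a UMI ratio of 1.97 (1.80 to 2.16). Cx3cr1 had 4.23 CP10K in S303/7A and 2.19 CP10K in WT, a UMI ratio of 1.98 (1.83 to 2.14). Folr2 and Cbr2 were 2.82 (2.37 to 3.36) and 3.23 (2.75 to 3.81) times higher in S303/7A by UMIs. Fcrls, at 2.22 CP10K in S303/7A and 1.86 CP10K in WT, and Nrgn, with a log2 ratio of 0.51, stayed within 1.5-fold.

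The resident macrophage list differed in the same direction, with 14 of the 16 genes measured (of 25 listed) at least 1.5-fold higher in S303/7A and none lower, and a median of 0.89 in C05, 0.66 in the other MF clusters and 0.53 in the CD8T clusters. Selenop, the selenium carrier, had 12.5 CP10K in S303/7A and 4.53 CP10K in WT. Pf4, a platelet factor chemokine also made by resident macrophages, had 11.98 CP10K in S303/7A and 5.05 CP10K in WT, and Ccl8, a monocyte-attracting chemokine, had 18.7 CP10K in S303/7A and 11.6 CP10K in WT. All 16 measured genes had a ratio above 0. Outside the list, F13a1, the coagulation factor XIII subunit, had 2.18 CP10K in S303/7A and 0.545 CP10K in WT, a UMI ratio of 4.06 (3.47 to 4.76). The F13a1 log2 ratio was 1.82 in C05 and 0.95 in the other MF clusters. Within the list, Wfdc17, a small secreted protein of macrophages, had a log2 ratio of 1.52 and Mgl2, a galactose lectin of alternatively activated macrophages, 1.49 in C05.

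Genes shared with microglia and genes of lipid handling followed in smaller numbers. Of 18 microglia-type genes measured, 10 were at least 1.5-fold higher in S303/7A and none lower, with medians of 0.66 in C05 and 0.42 in the other MF clusters. Tmem119, a microglial membrane protein, had 0.653 CP10K in S303/7A and 0.269 CP10K in WT, and Ltc4s, the leukotriene C4 synthase, 0.735 CP10K in S303/7A and 0.263 CP10K in WT. Of 25 lipid-handling genes, 8 were higher and none lower, with a median of 0.40. They included Lrp1, a lipoprotein receptor (log2 ratio 0.83), and Ctsd, the lysosomal protease cathepsin D (0.79). Of 12 macrophage identity genes, 4 were higher and none lower, with a median of 0.43 in C05 and 0.17 in the other MF clusters, among them C1qa (0.70) and C1qc (0.85), while Csf1r, the CSF1 receptor, was at 0.29. Of the 109 macrophage-side genes, 24 were higher and 2 lower, with a median of 0.15 in C05, 0.01 in the other MF clusters and 0.30 in the CD8T clusters. Of the 68 lymphocyte-side genes measured, 2 were higher and 7 lower, with a median of -0.28 in C05. Without the macrophage-side and lymphocyte-side genes, a setting chosen after seeing the data, the medians were 1.09 for the resident list, 0.66 for the microglia list and 0.36 for the lipid list. Without the highest Scrublet scores, which left 390 cells in S303/7A and 175 in WT, the medians were 0.83 for the given markers, 0.64 for the resident list and 0.41 for the microglia list.

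**Figure D4:**
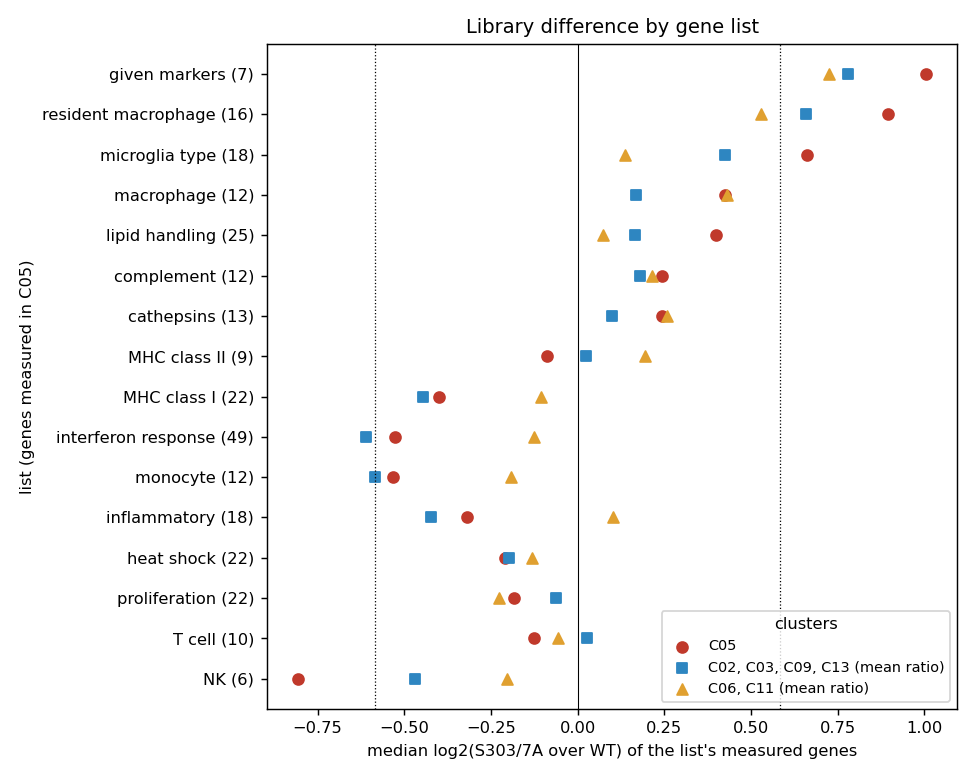
Median log2 ratio of S303/7A over WT of each list's measured genes (number in brackets) in C05 (red circles), the other MF clusters (blue squares) and the CD8T clusters (orange triangles); dotted lines mark 1.5-fold. The given markers (1.00 in C05) and the resident list (0.89) lie farthest to the right, and the NK list (-0.81) and the interferon list (-0.53) far to the left.

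Interferon response genes were lower in S303/7A almost throughout. Of 49 measured, 17 were at least 1.5-fold lower and none higher, and 48 had a log2 ratio below 0; the median was -0.53 in C05, -0.61 in the other MF clusters and -0.13 in the CD8T clusters. Isg15, a ubiquitin-like protein induced by interferon, had 5.90 CP10K in S303/7A and 11.8 CP10K in WT, a UMI ratio of 0.530 (0.509 to 0.552). Gbp2, a guanylate-binding protein, had 0.966 CP10K in S303/7A and 2.34 CP10K in WT, a UMI ratio of 0.436 (0.396 to 0.480). Ifitm3, which blocks virus entry, had 11.4 CP10K in S303/7A and 21.9 CP10K in WT, while Bst2 and Ifi27l2a differed less, with log2 ratios of -0.21 and -0.12. Without the highest Scrublet scores the median of the list was -0.26. MHC class I presentation genes lay below 0 in 20 of 22 cases, with 3 at least 1.5-fold lower and a median of -0.40 in C05 and -0.45 in the other MF clusters. H2-K1, a classical class I heavy chain, had 16.7 CP10K in S303/7A and 23.1 CP10K in WT, and B2m, the class I light chain, 56.7 CP10K in S303/7A and 64.6 CP10K in WT. MHC class II genes had a median of -0.09, with 1 of 9 higher (H2-DMb2, log2 ratio 0.65) and none lower.

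Because the interferon genes differed together, the 250 bases before the start of their genes (RefSeq, build GRCm38.p6) were searched for the core of the interferon-stimulated response element, GAAA, any 2 bases and GAAA again, on both strands, overlapping matches included. Of the 17 lower genes, 12 had a promoter in the table and 7 of these held the core, or 58.3%, against 14 of 26 other measured members, or 53.8%. It was held by 173 of 4010 measured genes, or 4.31%, and by 3.46% of all 27025 genes in the table. The core was absent from the promoters of Ms4a4c (log2 ratio -1.20), Ifitm3, Irf7, Cxcl9 and Irf1. A match is a run of letters, not a bound site. The promoters of Gbp2, Isg15 and Rsad2 (viperin, an antiviral enzyme, log2 ratio -0.74, chosen after its value was seen) are printed 5′ to 3′ on the strand of the gene, with the core in capitals, because they show it as a single match on the opposite strand and as overlapping matches on the same strand.
Gbp2, chr3:142620413-142620662, strand +: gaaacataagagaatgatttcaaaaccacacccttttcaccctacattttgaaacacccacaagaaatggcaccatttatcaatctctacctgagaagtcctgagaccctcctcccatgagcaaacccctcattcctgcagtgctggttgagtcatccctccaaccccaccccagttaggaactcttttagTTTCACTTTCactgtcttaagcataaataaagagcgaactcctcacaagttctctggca
Isg15, chr4:156200819-156201068, strand -: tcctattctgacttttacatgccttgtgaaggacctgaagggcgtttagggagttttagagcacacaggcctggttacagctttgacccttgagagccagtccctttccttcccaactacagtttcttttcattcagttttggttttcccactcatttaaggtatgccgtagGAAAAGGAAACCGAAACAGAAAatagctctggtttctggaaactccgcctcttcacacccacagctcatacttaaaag
Rsad2, chr12:26456453-26456702, strand -: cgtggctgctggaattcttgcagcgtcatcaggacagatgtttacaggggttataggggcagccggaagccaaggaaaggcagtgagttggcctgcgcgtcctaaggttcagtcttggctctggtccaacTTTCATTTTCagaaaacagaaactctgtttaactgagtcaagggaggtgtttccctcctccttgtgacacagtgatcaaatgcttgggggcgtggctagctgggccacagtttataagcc
The core starts 59 bases before the annotated start in Gbp2 and 120 in Rsad2, both as TTTC, 2 bases and TTTC on the strand shown, and Isg15 has it 3 times, starting 78, 72 and 66 bases before the start.

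Monocyte genes were lower in S303/7A, with 5 of 12 measured at least 1.5-fold lower, none higher and a median of -0.53 in C05 and -0.58 in the other MF clusters. Ly6i (chromosome 15, 74979534 to 74983430, GRCm38) had 0.285 CP10K in S303/7A and 2.32 CP10K in WT, a UMI ratio of 0.151 (0.131 to 0.173). Its log2 ratio was -2.65 in C05 and -1.47 in the other MF clusters, and in C02 it had 1.57 CP10K in S303/7A and 8.68 CP10K in WT. Ly6c2, the Ly6C antigen of inflammatory monocytes, had 2.22 CP10K in S303/7A and 9.39 CP10K in WT, a UMI ratio of 0.273 (0.258 to 0.289). Plac8, a monocyte and lymphocyte gene, had 7.59 CP10K in S303/7A and 25.3 CP10K in WT, with log2 ratios of -1.72 in C05, -1.79 in the other MF clusters and -0.44 in the CD8T clusters. Ly6c2 and Ly6i belong to a gene family of like sequence on chromosome 15, so part of their counts may be shared. The mutated gene Hsf1 lies on the same chromosome (76477422 to 76501913, GRCm38). Whether the position near Hsf1 bears on their values was not tested, and with 1 library each it cannot be told apart from other differences. Ccl5 and Ccl4, chemokines of activated lymphocytes and macrophages, were lower at log2 ratios of -1.02 and -0.86, and Cxcl9 and Cxcl10, induced by interferon gamma, at -0.71 and -0.65.

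Cytotoxic genes had the lowest median of the lists. Of 6 NK list genes measured, 4 were at least 1.5-fold lower, none higher, with a median of -0.81 in C05, -0.47 in the other MF clusters and -0.20 in the CD8T clusters. Gzma (granzyme A) had 0.864 CP10K in S303/7A and 2.79 CP10K in WT, a UMI ratio of 0.329 (0.298 to 0.363). UMIs of Gzma occurred in 12.1% of C05 cells in S303/7A and 18.5% in WT. Gzmb (granzyme B) had 2.68 CP10K in S303/7A and 5.19 CP10K in WT, a UMI ratio of 0.528 (0.497 to 0.561). In the NK cluster C10, Gzma had 41.5 CP10K in S303/7A and 70.2 CP10K in WT. The T cell list had no gene lower and 1 of 10 higher, Trbc1 at 3.60 CP10K in S303/7A and 2.24 CP10K in WT, with a median of -0.13 that was 0.26 without the highest Scrublet scores. Of 10 genes that mark T cell subsets, listed after values were seen, none passed 1.5-fold and the median was -0.08.

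The genes whose library difference in C05 lay farthest from that of the other MF clusters were of several kinds. Ifitm1, an interferon-induced membrane protein, had 1.5 CP10K in S303/7A and 3.16 CP10K in WT, with log2 ratios of -1.03 in C05, 0.22 in the other MF clusters and -1.41 in the CD8T clusters. Hopx, a homeodomain-only transcription cofactor, had log2 ratios of -1.91 in C05, -0.92 in the other MF clusters and -1.84 in the CD8T clusters. Penk, the enkephalin precursor, had 0.423 CP10K in S303/7A and 0.194 CP10K in WT, with log2 ratios of 0.83 in C05, -0.14 in the other MF clusters and 2.05 in the CD8T clusters. Hmox1, the heme-degrading oxygenase, had 0.72 in C05, -0.23 in the other MF clusters and 0.26 in the CD8T clusters, and Ccl2, a monocyte chemoattractant, 0.63, -0.04 and 0.12 in the same order. Mcemp1, a myeloid membrane protein, had -1.21 in C05, -0.36 in the other MF clusters and -0.02 in the CD8T clusters. Igfbp7, an insulin-like growth factor binding protein, Apold1, Ms4a7 and F13a1 were also among the 8 farthest above the other MF clusters, and Satb1, Jaml, Txk and Lsp1 the rest of the 8 farthest below. The difference between clusters was not tested. Without cells holding a UMI of other types' markers, which left 34 cells in S303/7A and 86 in WT, the log2 ratios of Penk, Ccl4, Cxcl9 and Trbc1 turned to -0.18, 0.38, 0.051 and -0.27, and that of Igfbp7 was -0.067 after thinning to 1000 UMIs.

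**Figure D5:**
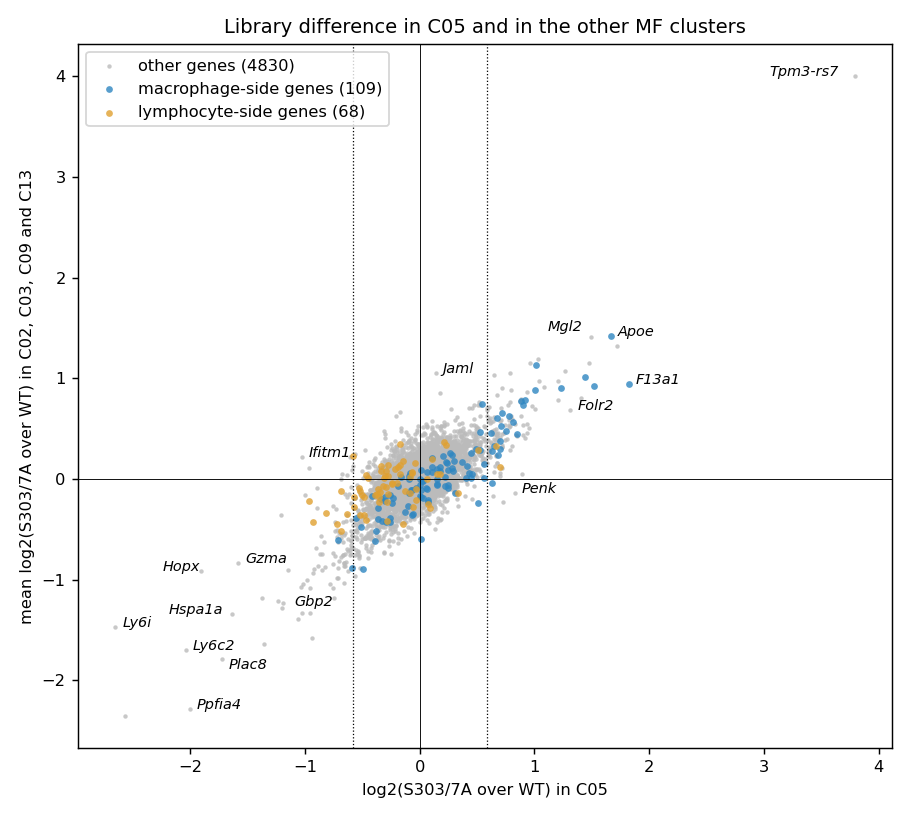
Log2 ratio of S303/7A over WT in C05 (x axis) and its mean over C02, C03, C09 and C13 (y axis) for the 5007 measured genes, 1 point each, with macrophage-side genes in blue and lymphocyte-side genes in orange; dotted lines mark 1.5-fold in C05. Tpm3-rs7 (3.80 in C05) is far to the right, Apoe (1.66) and F13a1 (1.82) are right of the centre, and Ly6i (-2.65) and Ly6c2 (-2.03) are far to the left.

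The mutated gene was low in C05. Hsf1 had 0.0936 CP10K in S303/7A (99 UMIs) and 0.175 CP10K in WT (55 UMIs), a UMI ratio of 0.626 (0.446 to 0.887), below the level set for measured genes, and 3′ tags do not read the mutated codons, so the genotype was not checked by it. Hspa1a (inducible HSP70, chromosome 17, 34969190 to 34972156, GRCm38) had 0.138 CP10K in S303/7A and 0.638 CP10K in WT, a UMI ratio of 0.218 (0.172 to 0.276). UMIs of Hspa1a occurred in 9.68% of C05 cells in S303/7A and 24.6% in WT. Its log2 ratio was -1.63 in C05, -1.34 in the other MF clusters and -0.51 in the CD8T clusters. Hspa1a and Hspa1b are near-identical neighbours and their counts may be shared. Hsph1, the HSP110 chaperone, had 0.155 CP10K in S303/7A and 0.321 CP10K in WT. These were the 2 lower genes among 22 heat shock genes measured, none was higher, and 19 lay below 0 with a median of -0.21 in C05 and -0.20 in the other MF clusters. The abundant constitutive chaperones Hspa8 and Hsp90ab1 had log2 ratios of -0.27 and -0.29.

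The largest log2 ratio among the 5007 measured genes was that of Tpm3-rs7. Tpm3-rs7, a related sequence of the tropomyosin gene Tpm3 (chromosome 14, 113314608 to 113316754, GRCm38), had 2.27 CP10K in S303/7A and 0.0706 CP10K in WT and was found in 94.7% of C05 cells in S303/7A and 6.63% in WT. Tpm3 itself had 1.22 CP10K in S303/7A and 3.33 CP10K in WT, so the differences of the pair ran in opposite directions. The log2 ratio of Tpm3-rs7 was 3.80 in C05, 4.00 in the other MF clusters and 4.11 in the CD8T clusters, and those of Tpm3 were -1.37, -1.18 and -1.35. Reads of the 2 near-identical genes can be split between them by the counting, and their values are uncertain.

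Hypoxia and glycolysis genes had 0 of 22 at least 1.5-fold higher, 0 lower and a median of -0.03, with Gapdh at 23.02 CP10K in S303/7A and 20.1 CP10K in WT. Proliferation genes had 0 of 22 past 1.5-fold in either direction, with a median of -0.18. Checkpoint and cytokine receptor lists had 0 of 12 and 0 of 15 past 1.5-fold in either direction. Macrophage transcription factors had 2 of 22 higher, Klf4 and Cebpa, and 1 lower, Runx3. Genes of iron handling and metallothioneins had 3 of 9 higher, none lower and a median of 0.40 in C05 and -0.11 in the other MF clusters. Trf, the iron carrier transferrin, had 2.36 CP10K in S303/7A and 1.12 CP10K in WT. The summed level of the 17 listed genes went the other way, at 204 CP10K in S303/7A and 213 CP10K in WT. Over all 5007 measured genes, 2.62% were higher and 2.16% lower.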

How the data were processed

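Each genotype is 1 library of tumor cells from pooled mice, so no test was made. The authors deposited expression as natural log values, ln of 1 plus UMIs per 100000 of the cell, with UMI totals per cell as counts and mitochondrial shares as percent. Per the submitters' processing notes, Cell Ranger and Seurat 3.0 were used, with mm10 and GRCm38 as builds; cell filters and clustering settings were not given in the sources used here. UMIs were recovered by undoing the log (99.9% within 0.1 of a whole number), and levels are mean UMIs per 10000 over cells. All 11456 cells and the deposited clusters were used; 48 barcodes occur in both libraries, of which 4 touch C05. Library totals were 72802161 UMIs over 4802 cells in S303/7A and 87075636 over 6654 in WT. Named genes were the given markers, the 15 highest and lowest between libraries, the 15 highest and 10 lowest against the other MF clusters, the 8 highest and lowest differences, and up to 5 per list by level and by ratio, without mitochondrial, ribosomal, Gm and Rik genes, each found in at least 10% of C05 cells of 1 library. Members and lists were chosen with earlier results of these data known; the lymphocyte-side, macrophage-side and T cell subset lists were chosen after values were seen. Clopper-Pearson intervals (scipy 1.17.1) cover counting error only. The computation was tested on simulated counts with 50 genes at each true log2 ratio. At 1 and -1, 48 and 46 genes passed 1.5-fold, with median recovered log2 ratios of 0.85 and -0.83. At 0.585 and -0.585, the 1.5-fold limit, only 6 and 13 passed, and of 4807 unchanged genes 0 passed. A list count of 0 past 1.5-fold can thus miss differences near that limit. Doublets were scored with Scrublet in scanpy 1.11.5, and no cell was removed.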

Additional observations from a re-analysis of the deposited data

How the results depend on the processing

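No paired analysis was possible because each genotype is 1 library, and for the same reason no replicate could be left out. The settings without macrophage-side and lymphocyte-side genes, with both marker sets and over all cells were chosen after seeing the data. Across the settings run, 104 summary values stayed within the limits set for them, 33 moved and 1 reversed. For single genes in C05 over the other MF clusters, more values moved (161) than stayed (87). For named genes in S303/7A over WT, 2380 values stayed, 673 moved and 5 reversed. Of the medians of the other lists, 262 stayed and 43 moved. The count of genes at least 1.5-fold higher in S303/7A (131) was 24 with a pseudocount of 1, 435 with cells thinned to 1000 UMIs and 430 without cells holding a UMI of other types' markers, which left 34 cells in S303/7A and 86 in WT. The count of lower genes (108) was 175 with a pseudocount of 0.01, 24 with 1, 164 with no filter on low values, 407 after thinning and 461 without those cells. With a pseudocount of 1, list medians were 0.71 for the given markers, 0.28 for the microglia list, 0.54 for the resident list, -0.26 for interferon and -0.66 for NK genes. Without the highest Scrublet scores they were 0.83, 0.41, 0.64, -0.26 and -0.56, and 0.26 for the T cell list. That filter left 390 C05 cells in S303/7A and 175 in WT. The given markers had 0.80 after thinning, the resident list 1.09 without macrophage-side and lymphocyte-side genes, and the NK list -0.66 among cells with both marker sets. Without cells holding other types' markers the NK list had -1.44, the T cell list -0.26, and 4 genes reversed (Ccl4 0.38, Cxcl9 0.051, Penk -0.18, Trbc1 -0.27); Igfbp7 reversed to -0.067 after thinning. The ratio of C05 among MF cells (1.39) was 1.62 among CD45-positive classes, 2.02 among all cells, 2.05 without the highest Scrublet scores and 0.720, a reversal, among cells of 5000 to 20000 UMIs. Against the other MF clusters, the 157 higher genes were 240 without C13 and C09 and 56 with a pseudocount of 1, and the 58 lower genes were 33 with clusters weighted equally, 111 after thinning, 112 without C13 and C09 and 10 with a pseudocount of 1. Thinning leaves fewer UMIs per gene and a higher pseudocount shrinks ratios by construction; the cause of the other shifts was not tested. Depth limits low genes such as Hsf1.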
